A study of Danio rerio with 2 samples.

Results

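The fatty acid binding protein genes of zebrafish were examined in the livers of man1a2 morphants and their controls. They were selected by symbol from a list of 10 members (fabp1a, fabp1b.1, fabp2, fabp3, fabp6, fabp7a, fabp7b, fabp10a, fabp10b and fabp11a), and that list was picked from earlier results of the same counts, in which a gene named FABP7 was among the highest morphant to control ratios. The difference between the libraries is therefore given here as a description, without a test. The name table often carries the upper-case human symbol, so fabp1a matched 2 IDs under FABP1, and fabp7a and fabp7b both matched the same 2 IDs under FABP7. The member fabp1b.1 had no symbol of its own in that table, and which of the 2 FABP1 IDs, if either, is fabp1b.1 was not given. fabp11a is listed by RefSeq as a synonym of fabp4a, the symbol used below. In all, 10 of the 31953 listed gene IDs were members.

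To describe the liver after man1a2 knockdown, the study sequenced 1 pool of livers from uninjected larvae (control) and 1 pool from larvae injected at the one-cell stage with a morpholino, an antisense oligonucleotide, against man1a2 (morphant). All larvae were 5 days post fertilization and were raised under standard conditions, and each pool combined 3 batches, with 100 livers stated either per batch or per pool. The study used a translation-blocking and a splice-blocking man1a2 morpholino at several doses, and which went into the sequenced pool was not given, nor was its fish line. The study kept several reporter lines, among them Tg(fabp10a:DsRed,ela3l:EGFP), in which the promoters of fabp10a and of the pancreatic gene ela3l drive fluorescent proteins. With 1 library per group there was no replicate check, and intervals are 95% Clopper-Pearson intervals unless stated otherwise, while the limit for 0 reads is a floor of 3 reads. Both cover counting error only. They can understate even that error, since PCR copies are not independent molecules. The control library held 19658335 reads assigned to genes and the morphant library 19783886. MAN1A2 (ENSDARG00000041728) had 193 control and 195 morphant reads, a log2 ratio of -0.09. A morpholino can act without lowering the transcript, so this count does not check the labels.

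Fatty acid binding proteins are small soluble carriers that hold a long chain fatty acid, a bile acid or another lipid in a barrel of beta strands and move it through the cytosol. Vertebrates carry several paralogs with different tissue patterns and ligands, and the teleost genome duplication left a pair of copies for some of them. In fish the main hepatocyte form is fabp10a, a bile acid and fatty acid carrier that mammals lack. FABP1, FABP2, FABP3, FABP6 and FABP7 are named in mammals for liver, intestine, heart, ileum and brain, respectively, and FABP4 is the adipocyte form.

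The liver form made up nearly all of the family's reads in both libraries. fabp10a (ENSDARG00000038439) had 170957 control and 219794 morphant reads. These were 90.2% of the family's 189600 control reads (interval 90.0% to 90.3%) and 90.5% of its 242838 morphant reads (90.4% to 90.6%). FABP3 (ENSDARG00000023290), the heart form in mammals, came second with 15762 and 19021 reads, or 8.31% and 7.83% of the family. FABP2 (ENSDARG00000006427), the carrier of dietary fatty acids in the mammalian enterocyte, had 2415 and 2550 reads, or 1.27% and 1.05%. The order of the first 4 members was the same in both libraries, with fabp4a (ENSDARG00000017299) in the fourth place at 445 and 741 reads. No transcript lengths were used, so this is an order of reads and not of molecules. The family as a whole took 0.964% of control reads (interval 0.960% to 0.969%) and 1.23% of morphant reads (1.22% to 1.23%).

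**Figure D1:**
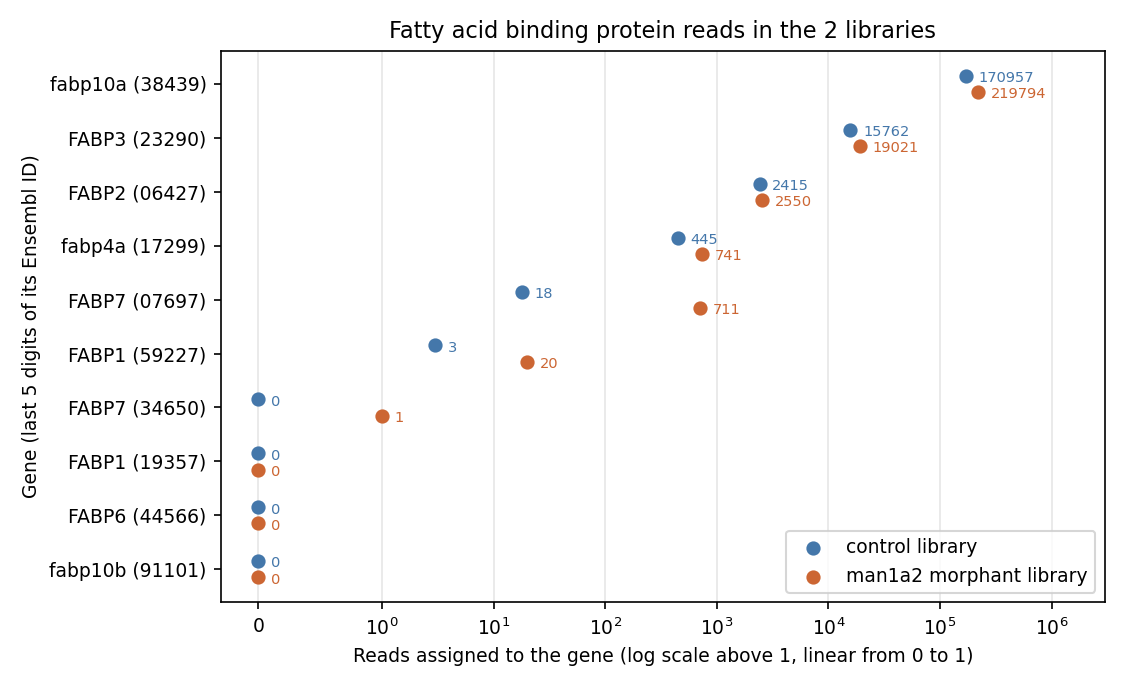
Reads assigned to each of the 10 fatty acid binding protein IDs (rows, with the last 5 digits of the Ensembl ID) in the control and the man1a2 morphant library, on an axis that is logarithmic above 1 read and linear from 0 to 1; each point is 1 library, and there are no error bars. The members span from 0 reads to 170957 and 219794 reads for fabp10a, and the upper of the FABP7 IDs shows the widest gap between the libraries, 18 against 711 reads.

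fabp10a had rank 9 among all genes of the control by reads and rank 5 in the morphant. As CPM, its reads scaled to a common library total of 1e6, its level was 8696 (interval 8655 to 8738) in the control and 11110 (11064 to 11156) in the morphant. After median-of-ratios scaling the morphant level was 1.19-fold the control level, a log2 ratio of 0.25 (interval 0.25 to 0.26). The counting interval is narrow because of the depth and says nothing of variation between pools. Of the 8557 genes with a mean scaled count of at least 100, 22.2% had a higher log2 ratio, and 41.8% lay farther from 0. The 20 genes closest to fabp10a in mean scaled count had log2 ratios from -3.42 to 0.18 with a median of -0.16, so fabp10a lay above each of them. The study selected genes by a fold of 1.2 together with an adjusted p-value, and only the fold can be set beside these values without a test. fabp10a was just under it with this scaling and over it when total counts (1.28-fold) or the hepatocyte marker genes alone (1.34-fold) set the scaling, so its side of that fold depends on the scaling.

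fabp10a was set beside other hepatocyte genes, since fewer hepatocytes in a bulk sample and less RNA per hepatocyte cannot be told apart. The labelled tissue had its defining markers at high levels: all 32 hepatocyte marker IDs passed the count minimum, and they held 4522239 control and 4233755 morphant reads, or 230042 and 214000 CPM. Most had lower morphant levels. By log2 ratio, 28 of the 32 were below 0 and 4 above, with a median of -0.16, and 24 were below 0 with total counts as the scaling. The lipoprotein gene apoa1b had 1680048 and 1659497 reads (-0.13), and tfa, for the plasma iron carrier transferrin, had 799736 and 702507 (-0.29). The markers farthest from 0 were hpxb, a hemopexin gene for haem transport (11649 and 5238 reads, -1.26), and the complement gene c3a.1 (163324 and 84897, -1.05). fabp10a went the other way. Its log2 ratio was above that of 30 of the 32 markers, a count that no scaling between the libraries can alter, and the exceptions were TAT and hpxa, named after their values were seen. Within the libraries there were 214 fabp10a reads per 1000 tfa reads in the control and 313 in the morphant, and 102 and 132 per 1000 apoa1b reads. Against the summed hepatocyte markers, fabp10a came to 3.78% in the control and 5.19% in the morphant.

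FABP3 was the next most abundant member. It had 802 CPM in the control (interval 789 to 814) and 961 in the morphant (948 to 975), and ranks of 173 and 150 among all genes. Its log2 ratio was 0.16 (interval 0.13 to 0.19), and 15 of the 20 genes closest to it in level lay farther from 0. Heart and muscle genes, the tissue in which mammals use this form most, were nearly absent from both libraries. Of the 34 IDs of that list, 23 had 3 reads or fewer in each library, and the whole list held 25.5 CPM in the control and 48.4 in the morphant, far below FABP3 alone. Its 6 genes past the count minimum had a median log2 ratio of 0.48, with 5 above 0 and 1 below. Of these 6, 1 was past 2-fold. This was MYL7, the myosin light chain of the atrium and ventricle in the larval heart (13 and 320 reads, log2 ratio 4.46), while the heart genes nppa and cmlc1 had 0 reads in both libraries. The myoglobin gene mb, the most abundant of the list, had 327 and 405 reads (0.20). After MYL7, the genes farthest from 0 were myhz1.1 (50 and 82 reads, 0.60) and myhz2 (22 and 35, 0.55).

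FABP2 was the member closest to no difference. It had 2415 control and 2550 morphant reads, 123 CPM (interval 118 to 128) and 129 CPM (124 to 134), and its log2 ratio was -0.03 (interval -0.11 to 0.05). Its sign followed the scaling, being 0.07 with total counts and 0.13 with the hepatocyte marker scaling. Of the 8557 deeper genes, 92.5% lay farther from 0. Enterocyte markers were checked beside it, as mammals use FABP2 in the intestine. VIL1 (villin of the brush border) and tmprss15 (the protease that starts trypsin activation) had 0 reads in both libraries, and 16 of the 27 IDs of the list had 3 reads or fewer in each. Of the 7 IDs past the count minimum, none was past 2-fold, and their median was -0.66. The list's most abundant gene, apoa4b.1, had 63276 and 43099 reads and is a lipoprotein gene that liver can also express. ADA, an enzyme of adenosine breakdown found in many tissues, had 3192 and 3408, and DAB2 (699 and 455) and ANPEP (ENSDARG00000103878, 144 and 98) were, apart from apoa4b.1 (-0.66), the genes farthest from 0, at -0.73 and -0.66. With 23 of 30 listed symbols matched, the enterocyte list was covered in part.

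fabp4a, the gene to which RefSeq assigns the synonym fabp11a, had 445 control and 741 morphant reads. Its CPM was 22.6 (interval 20.6 to 24.8) and 37.5 (34.8 to 40.3), and the log2 ratio was 0.63 (interval 0.46 to 0.80), a fold of 1.55. This is under 2-fold but farther from 0 than 19 of the 20 genes nearest in level, and 342 of the 8557 deeper genes had a higher ratio. Markers of adipocytes and endothelium, where relatives of this form are used in mammals, were checked beside it. The adipocyte markers ADIPOQ (ENSDARG00000062228, 0 and 6 reads), plin1 (2 and 2), lepa and lepb (0 in both libraries) were under the minimum. The 16 IDs past it were therefore mostly endothelial. Their median was -0.19, with 0 past 2-fold in the higher direction and 2 in the lower. Those 2 were CIDEC, a lipid droplet gene (559 and 265 reads), and plvapa, of endothelial pores (27 and 12). The endothelial receptor gene kdrl had 1131 and 1065 reads, and LPL, the lipase that releases fatty acids from lipoproteins, had 9213 and 12715 (log2 ratio 0.36).

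FABP7 (ENSDARG00000007697) had the largest ratio of the family, and this value was among those that led to the choice of the members. It had 18 control and 711 morphant reads, which moved it from rank 12910 to rank 2704. In CPM this was 0.916 (interval 0.543 to 1.45) against 35.9 (33.3 to 38.7). The log2 ratio was 5.16 (interval 4.53 to 5.96), a 35.7-fold difference with an interval of 23.0 to 62.2. Of the 8557 genes with a mean scaled count of at least 100, 0 had a higher ratio, and the 20 genes nearest in level ran from -0.48 to 0.94. FABP7 entered that set through its morphant reads, with scaled counts of 18.7 in the control and 685 in the morphant. Its place among these genes follows in part from how the members were chosen and is not a test. The morphant level of FABP7 thus came close to that of fabp4a, 711 against 741 reads, from 18 against 445 in the control. The other ID under this symbol, ENSDARG00000034650, had 0 and 1 reads, and both are under the 3 reads that a count of 0 allows (0.153 CPM in the control and 0.152 in the morphant). Which of these IDs is fabp7a and which is fabp7b was not given.

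Radial glia of the brain are the cells best known for Fabp7 in mammals and fish, so neural and glial markers were checked beside it. Most were at or near 0. GFAP had 3 reads in each library, and SOX2, SOX3, ELAVL3, S100B and NEUROD1 had 0 in both. In all, 25 of the 35 IDs of the list had 3 reads or fewer in each library, and of the 6 past the count minimum 1 was past 2-fold. This was GLUL (ENSDARG00000099776), glutamine synthetase, an enzyme that liver uses too, with 970 and 3221 reads (log2 ratio 1.62). The other ID under GLUL (ENSDARG00000100003) had 123 and 231 reads (0.80). The whole list summed to 1830 control and 4124 morphant reads (93.1 and 208.5 CPM), and without both IDs under GLUL to 737 and 672. The list's next most abundant gene, mbpb, had 310 and 249 reads (log2 ratio -0.42). SLC1A3 (ENSDARG00000104431) had 258 and 253 reads (-0.14) and plp1b 112 and 89 (-0.44), so not all glial markers were absent. In the other direction, tuba1c had 27 and 45 reads (0.62, interval -0.09 to 1.37). Of the 6 IDs past the count minimum, 3 were above 0 and 3 below, with a median of 0.24. SLC1A3 and plp1b are named after their values were seen.

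In 2 other marker lists, most IDs past the count minimum were also at least 2-fold higher in the morphant, against 3.30% of all genes. With 1 library per group, a shared direction does not measure whether genes vary together. Of the 23 exocrine pancreas IDs past the count minimum, 20 were past 2-fold, each higher in the morphant (19 under TMM or upper-quartile factors), and the list summed to 73.7 CPM in the control and 693 CPM in the morphant. The list's median was 3.99, or 3.75 with its 1 gene at 0 control reads set to 3 reads. The protease genes prss59.2 (88 and 2027 reads) and ctrb.1 (99 and 2001) were the most abundant, and pdia2, a disulfide isomerase of pancreatic acinar cells, had 9 and 339. Of the 12 epidermal IDs past the minimum, 7 were past 2-fold, all higher in the morphant (8 with the hepatocyte marker scaling), from a sum of 48.6 CPM to 127.8 CPM. The keratin genes krt91 (418 and 426 reads) and krt4 (155 and 814) were its most abundant, with log2 ratios of -0.08 and 2.28. The 5 genes nearest to FABP7 in the plane of the 2 scaled levels, over 2 libraries, were ctrl (28 and 629 reads), cyt1 (14 and 444), ela3l (20 and 390), CPA1 (ENSDARG00000021339, 38 and 662) and ela2 (19 and 334), of which cyt1 is an epidermal keratin and the others are pancreatic digestive enzymes. Their distances ran from 0.65 to 1.09 on the log2 scale. The part of pancreatic or epidermal tissue in the level of FABP7 was not tested. The same measure put MT-CO1, serpina1l, BHMT, fetub and zgc:123103 nearest to fabp10a, at distances of 0.24 to 0.42, and of these MT-CO1, a subunit of the mitochondrial cytochrome oxidase, had the highest log2 ratio, 0.16.

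FABP1, the liver form of mammals, was close to absent in both pools. ENSDARG00000059227 had 3 control reads, no more than a count of 0 allows, and 20 morphant reads. These correspond to 0.153 CPM (interval 0.031 to 0.446) and 1.01 CPM (0.617 to 1.56), and the morphant to control ratio had an interval of 1.84 to 32.5. It passed the count minimum through its morphant reads alone. The other ID under FABP1 (ENSDARG00000019357), FABP6 (ENSDARG00000044566) and fabp10b (ENSDARG00000091101) had 0 reads in both libraries, which by the floor of 3 reads allows up to 0.153 CPM in the control and 0.152 CPM in the morphant. FABP6 is the ileal bile acid binding protein of mammals, and SLC10A2, the transporter that brings bile acids into ileal cells, had 0 and 1 reads. fabp10b, the duplicate of fabp10a, was thus at 0 where fabp10a was among the most abundant genes. Of the other symbols that begin with fabp, fabp1b.2 had 0 reads in both libraries and fabp4b had 0 and 1.

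Of the 10 IDs, 6 had a mean scaled count of at least 10, 1 had a single read and 3 had none. Among these 6, 2 were at least 2-fold higher in the morphant (FABP7 and FABP1), 0 were lower by that fold and 4 were within it. Among all 14241 genes that passed the same minimum, 7.44% were past 2-fold, 3.30% higher and 4.14% lower. The members were chosen on this contrast, so their count is not read against these shares. The share of higher genes among those past 2-fold was 44.4%, and it was 54.2% with total counts and 63.0% with the hepatocyte marker scaling, which moved all log2 ratios up by 0.10 and 0.16, respectively.

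**Figure D2:**
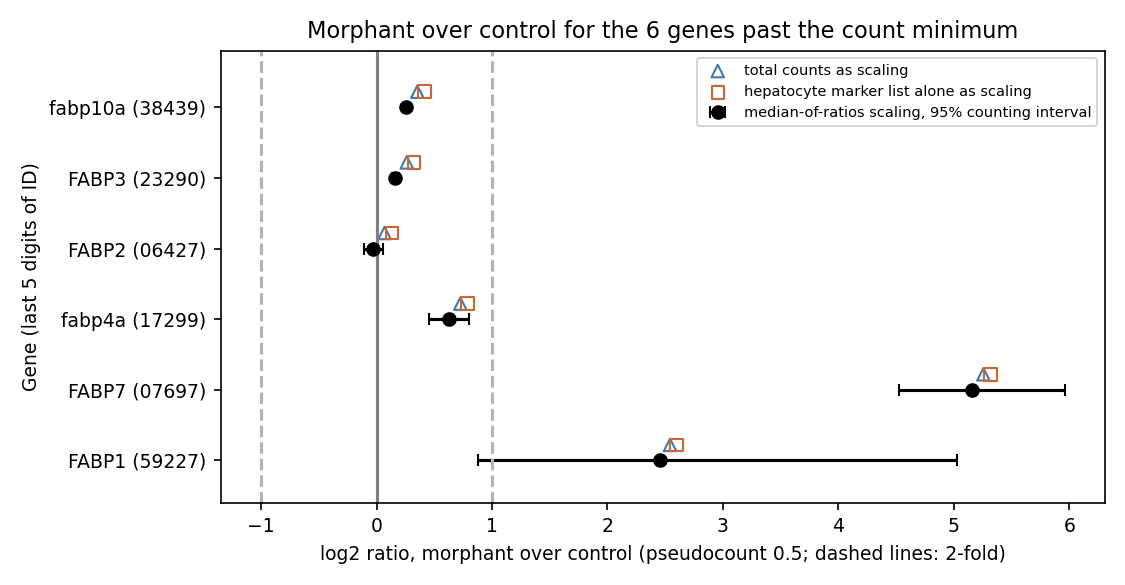
Log2 ratio of morphant over control scaled counts for the 6 fatty acid binding protein genes past the count minimum (rows); filled points use median-of-ratios scaling with 95% Clopper-Pearson intervals of the read split, open triangles total counts and open squares the hepatocyte marker genes as scaling. FABP7 (5.16) and FABP1 (2.45) lie beyond the dashed 2-fold line, fabp4a (0.63), fabp10a (0.25) and FABP3 (0.16) lie between 0 and that line, and FABP2 (-0.03) changes sign with the scaling.

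**Figure D3:**
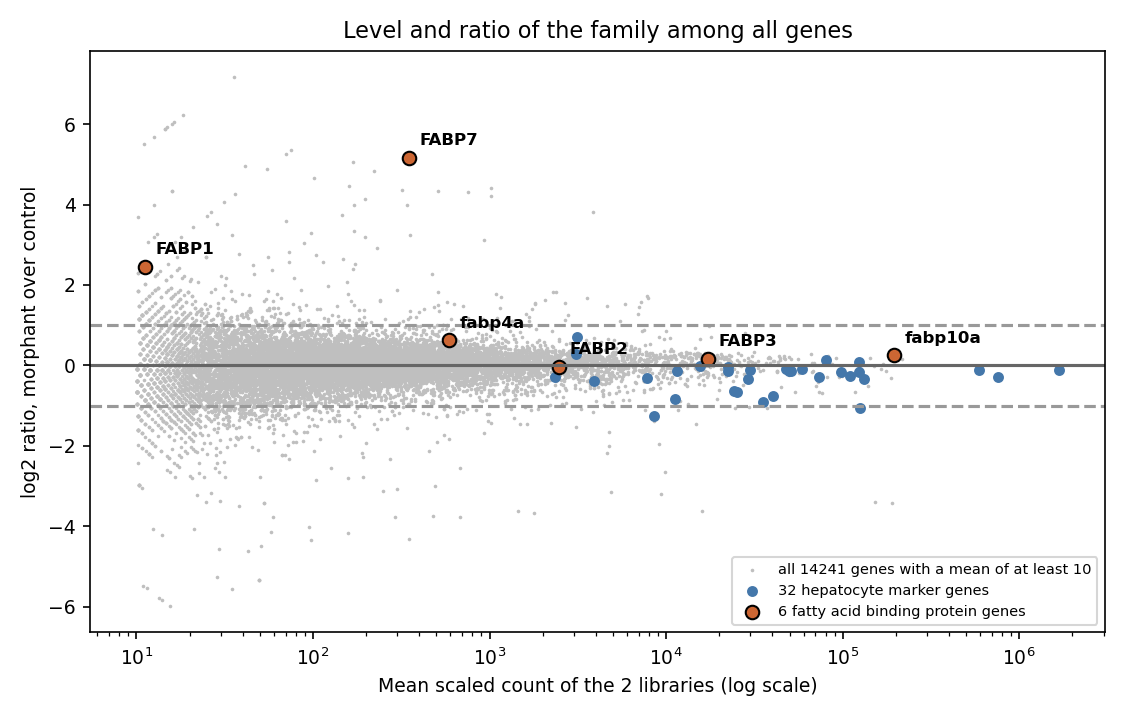
Log2 ratio of morphant over control (vertical axis) against the mean scaled count of both libraries (horizontal axis, log scale) for all 14241 genes past the count minimum, with the 32 hepatocyte marker genes and the 6 fatty acid binding protein genes marked; dashed lines are 2-fold. fabp10a lies at the abundant end above 30 of the 32 hepatocyte markers, and FABP7 lies far above the genes of its level.

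The paralogs were then compared with fabp10a inside each library, a ratio that needs no scaling between libraries. The control library held 10.8 fabp10a reads for each FABP3 read and the morphant library 11.6, a log2 difference of -0.09 for FABP3 relative to fabp10a (exact conditional interval -0.12 to -0.06). For FABP2 the numbers were 70.8 and 86.2, a log2 difference of -0.28 (interval -0.37 to -0.20). For fabp4a they were 384 and 297, a log2 difference of 0.37 (interval 0.20 to 0.55) in the other direction. FABP7 changed its place most. There were 9498 fabp10a reads for each FABP7 read in the control and 309 in the morphant, a log2 difference of 4.94 (interval 4.27 to 5.70). Despite this, the paralogs other than fabp10a together took 9.83% of the family's reads in the control (interval 9.70% to 9.97%) and 9.49% in the morphant (9.37% to 9.61%), because FABP3 dominated their sum. Leaving out fabp10a and FABP3, the rest of the family went from 2881 to 4023 reads, a log2 ratio of 0.37 (interval 0.30 to 0.44), and FABP7 and fabp4a made up most of that gain.

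Other genes of fatty acid handling were compared from lists of general knowledge, leaving out the members. Over the 6 lists, 8 of 87 IDs past the minimum were at least 2-fold higher and 4 lower, beside 3.30% and 4.14% of all genes. The lists were chosen with earlier results known, so no list was tested against these shares. Relatives in the same protein fold, most of which bind retinol or retinoic acid, were represented by 13 IDs, with 15 of 20 listed symbols matched. Of the 6 past the minimum, 0 were past 2-fold higher and 1 was lower. This was rbp7a, a retinol binding protein gene, with 172 and 11 reads (log2 ratio -4.01, interval -5.10 to -3.20). The most abundant relative was RBP2 (ENSDARG00000093774), a retinol carrier, with 27148 and 30788 reads (log2 ratio 0.07), which were more reads than FABP3 had in either library. rbp5 had 631 and 724 reads and CRABP2 (ENSDARG00000030449), a retinoic acid carrier, 75 and 96.

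For fatty acid uptake and activation, 3 of 14 IDs past the minimum were at least 2-fold higher and 1 was lower, with a median of 0.22. ACSL4 (ENSDARG00000004078), an acyl-CoA synthetase with a preference for arachidonic acid in mammals, had 52 and 295 reads (log2 ratio 2.39, interval 1.97 to 2.85). The transporter gene SLC27A6 had 37 and 10 reads (-1.94, interval -3.17 to -0.96). The abundant members were nearer to 0, with slc27a2a, a transporter and very long chain acyl-CoA synthetase of liver, at 9779 and 12407 reads (0.24) and slc27a2b at 7547 and 7690 (-0.08). The best known fatty acid receptor gene, CD36, had 5 and 1 reads and was under the minimum. It is named after its values were seen.

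Among 14 acyl-CoA and sterol carriers, 1 was past 2-fold, STARD10, with 7 and 16 reads and an interval that included 0 (-0.28 to 2.61). STARD10 passed the count minimum through its morphant reads, since its control reads were under that minimum. The acyl-CoA binding protein gene DBI had 7267 and 12396 reads (log2 ratio 0.66, interval 0.62 to 0.70), a ratio near that of fabp4a. The sterol carrier gene scp2a had 24865 and 27092 (0.02), and STARD5 77 and 47 (-0.81).

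Lipid-sensing nuclear receptors and liver factors act at Fabp genes in mammals. Of their 28 IDs, 0 were past 2-fold higher and 2 lower, with a median of -0.10 (0.00 with total counts). The lower ones had few reads, RXRA (ENSDARG00000035127) with 25 and 5 and PPARA (ENSDARG00000054323) with 20 and 9. PPARA and its paralogs are the fatty acid sensors of this group. The most abundant, CEBPB and PPARD (ENSDARG00000044525), had log2 ratios of 0.08 and -0.15. HNF4A, a central hepatocyte factor named here after its values were seen, had 1758 and 1775 reads (-0.09).

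For bile acid synthesis and transport, 1 of 12 IDs was past 2-fold, NR0B2, a repressor in bile acid feedback, with 23 and 91 reads (log2 ratio 1.86), and the median was 0.18. With the hepatocyte marker scaling there were 2. CYP7A1, the rate-limiting enzyme of bile acid synthesis, had 698 and 1389 reads (0.88, interval 0.75 to 1.02). The exporter gene slc51a had 11497 and 15314 (0.31), and ABCB11, the bile salt pump, 6928 and 8143 (0.13). Among 13 lipoprotein IDs, 3 were past 2-fold, all higher, while the median was -0.06 (0.04 with total counts). Of the 13, 8 were below 0 (6 with total counts), and the list summed to 285956 control and 262802 morphant reads. The abundant apoc1 had 116707 and 136127 reads (0.11) and apoa4b.1 63276 and 43099 (-0.66). Both apoeb (276 and 887 reads, 1.58) and apoa4a (3 and 111 reads, interval 3.52 to 7.40) were past 2-fold. Of these, apoa4a passed the count minimum through its morphant reads alone.

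**Figure D4:**
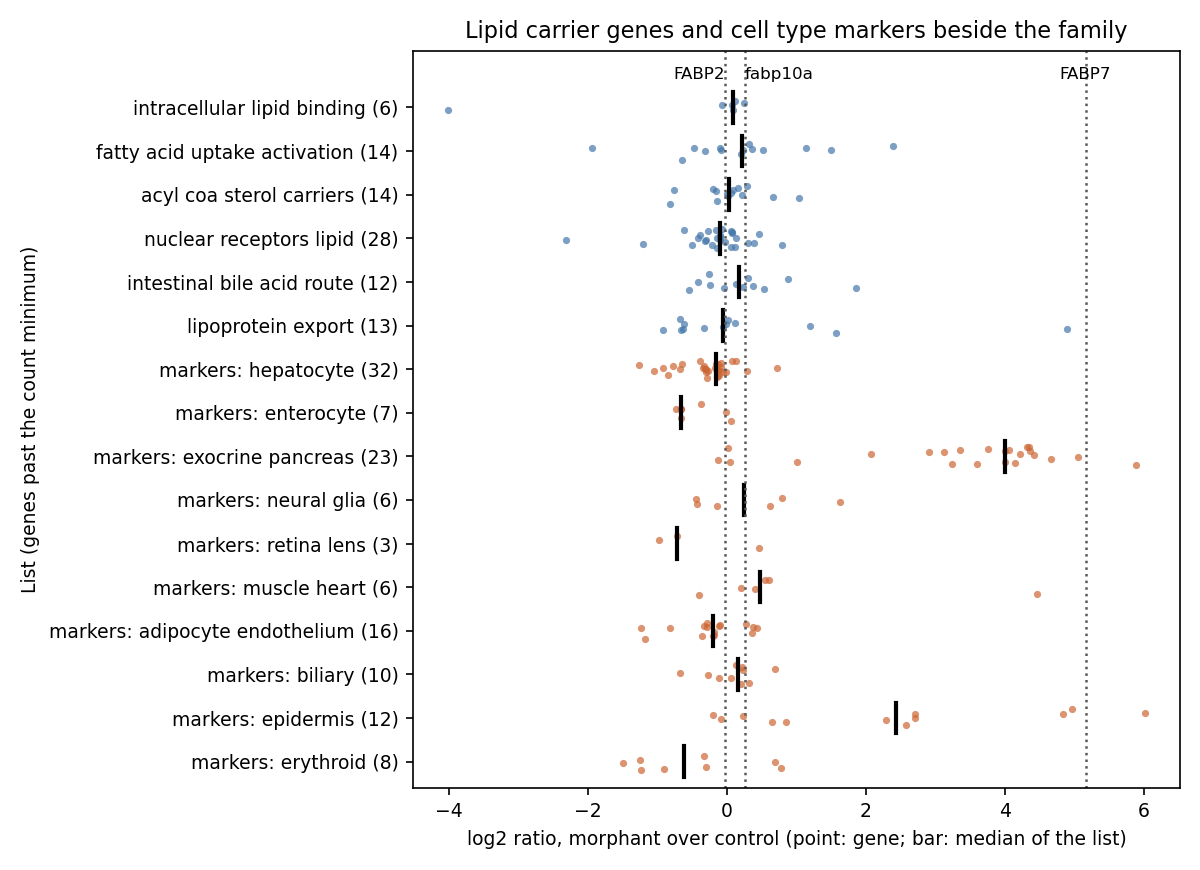
Log2 ratios of morphant over control for the genes past the count minimum in 6 lipid lists (blue) and 10 cell type marker lists (orange); each point is a gene, black bars are medians, and dotted lines mark FABP2, fabp10a and FABP7. Exocrine pancreas (median 3.99) and epidermis (2.43) are the marker lists whose points reach the level of FABP7. The points that do so are CPA1 (ENSDARG00000030915, 0 and 30 reads) and icn2 (0 and 33). With 0 control reads, their place depends on the pseudocount. Most hepatocyte markers lie left of fabp10a.

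The remaining marker lists were closer to the family's abundant members than to FABP7. Biliary markers had a median of 0.16 over 10 IDs with 0 past 2-fold, and ANXA4 and krt8 had 12942 and 11278 control reads with log2 ratios of 0.07 and -0.12. Its members farthest from 0 were her15.1 (25 and 44 reads) and SOX9 (ENSDARG00000003293, 24 and 16). Erythroid markers had a median of -0.62 over 8 IDs, of which 6 were below 0 and 2 above. Of these 8 IDs, 3 were past 2-fold, all lower, beside 4.14% of all genes lower by that fold. The 3 were hbae1.1 (389 and 177 reads), alas2 (190 and 86) and epb41b (48 and 18). Retina and lens markers were almost absent, with 3 of 28 IDs past the minimum and 93 and 64 reads in all.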

How the data were processed

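Counts per gene came from 1 control and 1 man1a2 morphant library, made from poly-A RNA of pooled livers with a stranded kit. The authors deposited raw counts, the whole number of reads assigned to each Ensembl gene ID without normalization. The submitters' processing notes name the build GRCz10 and the tools FastQC and DESeq2, without versions, and the study's methods name DESeq. The aligner, the counting program and the treatment of reads shared by paralogs are not given in the sources used here, so reads of near-identical copies could be split between IDs. Of 31953 IDs, 26121 had a symbol in the name table. RefSeq's table (GRCz12tu) was used for synonyms alone, and no coordinates or sequences are given. No per-sample column was left unused.

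Counts were scaled with the median-of-ratios factors of DESeq2 1.42.0 in R 4.3.3, with TMM, upper-quartile (edgeR 4.0.16) and total counts, factors without the 20 most abundant genes of each library and factors from the hepatocyte markers as alternatives. A log2 ratio is morphant over control with a pseudocount of 0.5. A gene counted as past 2-fold with a mean scaled count of at least 10. Clopper-Pearson intervals and exact conditional intervals of the odds ratio (SciPy 1.17.1) carry no pseudocount. No replicated test can be fitted to 1 library per group. The procedure was tested on simulated data that held counting error only, so that test does not cover variation between pools. List symbols were matched exactly, then without the paralog suffix, then by a unique RefSeq synonym, and 327 of 355 matched. Genes named were the members, man1a2, up to 4 genes per list (the 2 most abundant and the 2 farthest from 0 of the rest), and the 5 nearest genes to fabp10a and FABP7. Defining markers at or near 0, SLC10A2 and other fabp symbols were named outside this rule, after their values were seen. The members and lists were chosen with earlier results of these data known.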

Additional observations from a re-analysis of the deposited data

How the results depend on the processing

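The log2 ratio of fabp10a, 0.25 with median-of-ratios scaling, was 0.24 with TMM factors, 0.23 with upper-quartile factors, 0.35 with total counts and 0.42 with the hepatocyte marker scaling, each beyond its narrow counting interval and each above 0. That of FABP7 stayed inside its interval under every scaling, both other pseudocounts and thinning. The number of family IDs past 2-fold was 1 instead of 2 with a mean scaled count of at least 100, since FABP1 no longer passed, and 3 at a fold of 1.2. Under the same stricter minimum, 4 instead of 12 genes of the lipid lists were past 2-fold, as fewer genes remained. Adding the retinoid carriers and other relatives to the family put fabp10a at 78.5% of control and 80.1% of morphant reads. Levels per coding length were not run, because no transcript or protein lengths were used. No paired analysis was possible because a single library stood for either condition. Variation between pools was not measured and limits every ratio, and few reads limit FABP1.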
